A study of Mus musculus with 4 samples.

Results

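The unfolded protein response (UPR) genes and chaperones of the endoplasmic reticulum (ER) were examined as a set of 36 named mouse genes, out of 43629 genes in each count file. All 36 were found, with Ero1b under its older symbol, Ero1lb, in the annotation. They were read in 4 arms: 16 chaperones and folding enzymes, 8 genes of ER-associated degradation, 4 genes for the stress sensors and Xbp1, and 8 genes of the integrated stress response. The 4 libraries came from pancreatic islets of C57BL/6 mice, with 1 library per group. They were an immunoprecipitation of RNA bound by IMP2 (RIP) from wild-type islets, a library titled IgG from wild-type islets, islets of the genotype Rip2;IMP2, called an islet-specific knockout in the series title, and control islets. Igf2bp2 is the gene of IMP2, a protein that binds mRNA. Rip2 commonly names a promoter from an insulin gene that works in beta cells, and the gene may be intact in alpha, delta and other cells of the islet. The control genotype is given only as control, and neither the age of the mice nor how many were pooled is given in the sources used here.

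Proteins that enter the ER fold with the help of chaperones, lectins and disulfide isomerases, and those that fail are extracted to the cytosol and degraded. When unfolded protein builds up, the sensors IRE1, ATF6 and PERK raise the folding and degradation machinery through XBP1 and ATF6, and PERK slows translation while raising ATF4 and its targets. Islet beta cells make insulin in bulk and run this system at a high level, as do acinar and plasma cells. IRE1 acts by splicing Xbp1 mRNA and PERK by phosphorylating eIF2 alpha, and neither step is visible in counts per gene.

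The libraries held 6025594 gene counts (RIP), 13195732 (IgG), 24275628 (labelled knockout) and 26350813 (control). Levels are given as CPM, counts per 1000000 gene counts. Igf2bp2 was at 30.9 CPM in the RIP and 34.7 CPM in the IgG library. It was at 9.15 CPM in the library labelled knockout and 9.68 CPM in control islets, a ratio of 0.979 (95% counting interval 0.814 to 1.18). A count over a whole gene does not check a partial deletion, so directions below are between the labelled libraries. The IgG library went against its islet label: 7 adipocyte genes summed to 40170 CPM there, and 9 beta cell genes to 967.1 CPM. The same lists summed to 2396 and 235700 CPM in the RIP, 228.3 and 334500 CPM in the labelled knockout, and 272.1 and 309200 CPM in control islets. Results that rest on the IgG library are therefore given beside the RIP over control islets, which does not use it.

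Promoters of several members hold an element known from this response. The ER stress response element (ERSE) is known as a site bound by ATF6 with the factor NF-Y, and was searched on both strands as CCAAT and CCACG with 9 bases of any kind between them. The second form, ERSE-II, was searched as ATTGG and CCACG with 1 base of any kind between them. RefSeq promoter windows on GRCm38.p6, from 250 bases before to 50 bases after each start, were at hand for 32 of the 36 members, all but Hyou1, Manf, Derl1 and Atf6. ERSE was found in 10 of these 32 (31.2%), against 37 of all 27025 genes with a window (0.137%). It was found in 8 of 14 chaperone genes, 2 of 7 degradation genes and 0 of 11 sensor and stress genes (0 of 3 and 0 of 8). The element was first described in promoters of genes such as Hspa5, so its share in this list is not independent evidence. The spacing of 9 bases is set by the search, so it is the same in every site. The 11 sites in those 10 genes are printed to show the bases between and around the blocks. Each is read in the direction of the motif with 10 bases on each side, and capitals mark the CCAAT and CCACG blocks.
Hspa5: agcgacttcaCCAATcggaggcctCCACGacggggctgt
Hsp90b1 (distal): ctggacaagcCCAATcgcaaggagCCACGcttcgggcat
Hsp90b1 (proximal): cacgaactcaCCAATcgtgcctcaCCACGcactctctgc
Dnajc3: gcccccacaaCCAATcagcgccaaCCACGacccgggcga
Pdia6: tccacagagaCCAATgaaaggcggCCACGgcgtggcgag
Creld2: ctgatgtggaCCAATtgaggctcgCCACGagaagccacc
Calr: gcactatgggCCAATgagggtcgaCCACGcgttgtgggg
Canx: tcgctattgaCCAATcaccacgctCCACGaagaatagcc
Ero1b: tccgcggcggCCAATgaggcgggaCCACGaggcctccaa
Syvn1: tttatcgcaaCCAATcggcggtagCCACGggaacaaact
Derl3: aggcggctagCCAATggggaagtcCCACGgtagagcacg

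The Hspa5 site lies at chr2:34772025-34772043, 65 to 47 bases before the start, and the Derl3 site at chr10:75893242-75893260, 156 to 138 bases before it on the opposite strand. Hsp90b1 had 2 sites in opposite directions, 212 to 194 and 107 to 89 bases before its start. ERSE-II was found in 2 of the 32 members and in 12 of all 27025 genes (0.0444%). It lay 7 to 17 bases after the start of Dnajb11 and 52 to 42 bases before that of Herpud1, and capitals again mark the fixed letters.
Dnajb11: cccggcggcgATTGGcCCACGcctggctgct
Herpud1: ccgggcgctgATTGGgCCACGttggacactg

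The block CCACG, which is contained in both elements, was present in 25 of the 32 members (78.1%) and in 35.5% of all genes. It was found in all 7 degradation genes with a window and in 12 of 14 chaperone genes. The XBP1-type core TGACGTGG was in 0 members and 0.714% of all genes. The ATF4-type cores TGATGNAAT and TGATGNCAT were each in 0 members and in 1.08% and 2.35% of all genes. Both were searched with their last letter fixed as T, so forms with another last base were not counted. The windows of Asns, Chac1, Atf3, Trib3 and Herpud1 hold such a form of TGATGNAAT on either strand. These cores therefore do not show that members lack ATF4-type sites. Absence says only that these letters are not in these windows.

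**Figure D1:**
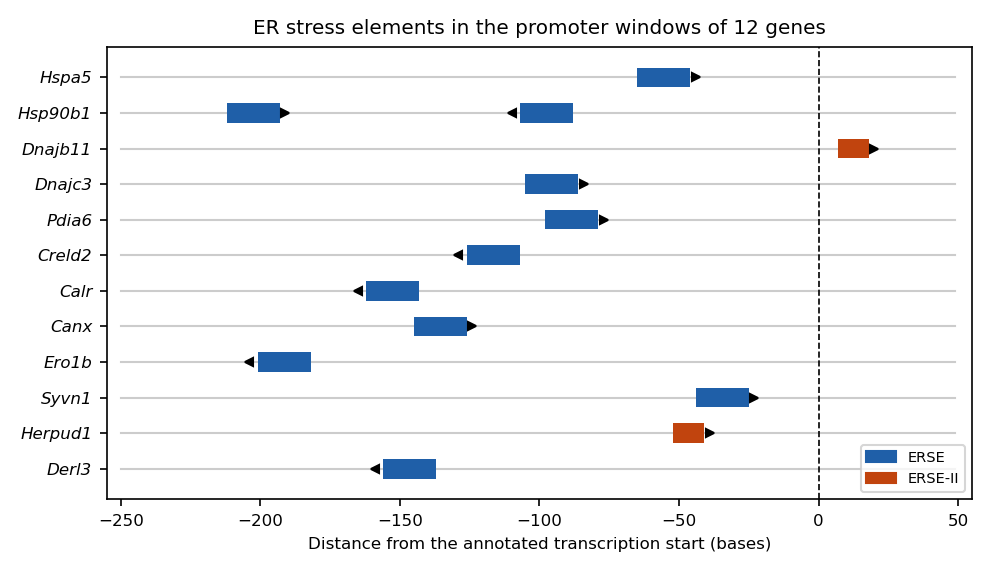
Position of ERSE (blue) and ERSE-II (orange) in the promoter windows of the 12 members that hold either, as distance from the annotated start in bases. Arrowheads give the direction of the motif. ERSE sites lie between 212 and 26 bases before the start, and the ERSE-II of Dnajb11 is the only site after it.

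Whole windows are shown for 3 genes whose values are described below: Hspa5 with an ERSE, Derl3 with an ERSE on the opposite strand, and Dnajb9 with 2 copies of CCACG and no ERSE. They lie at chr2:34771840-34772139, plus strand, at chr10:75893148-75893447, plus strand, and at chr12:44210019-44210318, minus strand. They read in the direction of the gene, with the fixed letters of ERSE and each CCACG, on either strand, in capitals.
Hspa5: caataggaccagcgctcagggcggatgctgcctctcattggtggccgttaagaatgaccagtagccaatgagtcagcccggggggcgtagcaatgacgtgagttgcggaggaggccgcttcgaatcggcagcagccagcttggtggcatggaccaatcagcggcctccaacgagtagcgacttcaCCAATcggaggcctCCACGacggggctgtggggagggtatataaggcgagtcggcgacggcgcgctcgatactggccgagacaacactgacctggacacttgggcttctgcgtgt
Derl3: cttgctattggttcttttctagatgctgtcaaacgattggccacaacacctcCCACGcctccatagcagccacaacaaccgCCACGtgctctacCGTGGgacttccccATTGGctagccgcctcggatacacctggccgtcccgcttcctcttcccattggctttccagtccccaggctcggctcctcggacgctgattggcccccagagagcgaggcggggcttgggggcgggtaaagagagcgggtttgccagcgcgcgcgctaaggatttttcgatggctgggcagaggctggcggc
Dnajb9: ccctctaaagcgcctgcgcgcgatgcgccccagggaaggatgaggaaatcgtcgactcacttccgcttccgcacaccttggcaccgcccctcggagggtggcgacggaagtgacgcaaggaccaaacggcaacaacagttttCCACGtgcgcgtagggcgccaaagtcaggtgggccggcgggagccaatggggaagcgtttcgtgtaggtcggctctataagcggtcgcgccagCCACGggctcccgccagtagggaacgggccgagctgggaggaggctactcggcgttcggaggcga

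All 36 members were expressed in both islet libraries, at 6.84 to 1016 CPM in the labelled knockout and 6.87 to 924.1 CPM in control islets. Together they made up 0.630% of gene counts in the RIP, 0.222% in the IgG library, 0.841% in the labelled knockout and 0.710% in control islets. Per kilobase of merged exons, the chaperone arm held 75.9% of the members' level in the RIP, 55.9% in the IgG library, 73.9% in the labelled knockout and 74.8% in control islets. The degradation arm held 10.5%, 21.8%, 11.8% and 10.8% in the same order of libraries, the sensors and Xbp1 4.40%, 4.58%, 5.51% and 4.83%, and the stress arm 9.26%, 17.8%, 8.81% and 9.53%. The balance of the arms was thus close in the RIP and the islet libraries and shifted from chaperones to degradation and stress genes in the IgG library.

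Calr, which encodes the lectin chaperone calreticulin, was the member with the highest level per kilobase in control islets, ranking 58 of all genes there. It stood at 231.8 CPM per kb in the RIP, 115.3 in the IgG library, 351.4 in the labelled knockout and 320.9 in control islets. Pdia3, a disulfide isomerase that works with calreticulin, stood at 163.0, 32.3, 199.7 and 188.0 CPM per kb in the same order. Hspa5 encodes BiP, the central Hsp70 chaperone of the ER, and stood at 158.1, 36.4, 198.7 and 169.9 CPM per kb. All 3 were lowest in the IgG library. At the other end, Trib3, which encodes a pseudokinase induced by ATF4 and CHOP, had the lowest level in control islets at 3.23 CPM per kb, and Atf3, a stress-induced transcription factor, stood at 4.37.

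**Figure D2:**
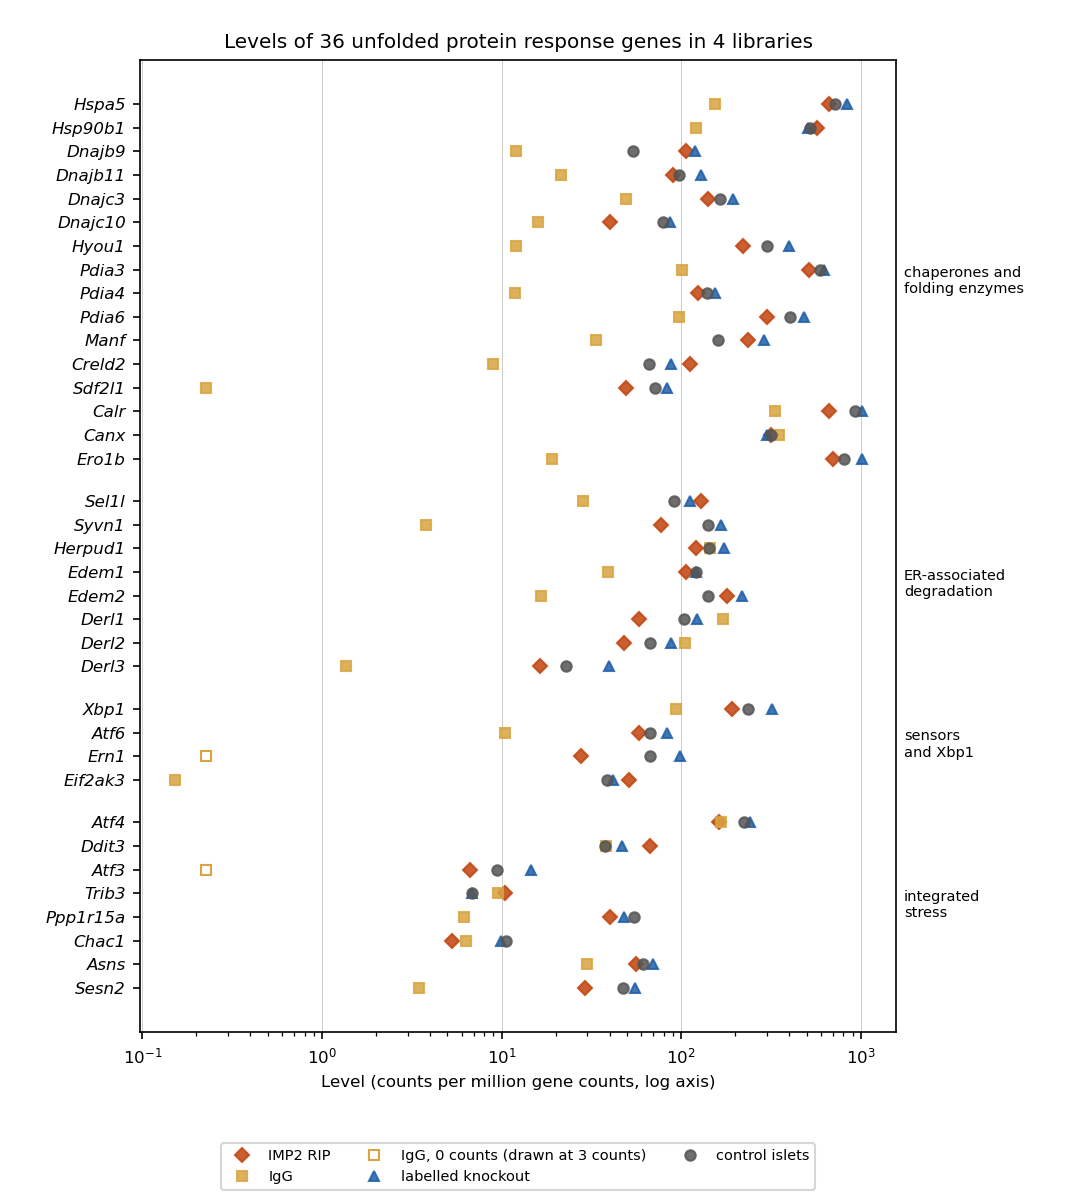
Level of each of the 36 members in the 4 libraries, in CPM on a log axis, grouped by arm. Open squares mark Ern1 and Atf3, which had 0 counts in the IgG library and are drawn at 3 counts (0.227 CPM). The RIP lies near the islet libraries for most genes, and the IgG library lies lower for most but is the highest of the 4 for Canx, Derl1 and Derl2.

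The first comparison asks which members differ in level between islets labelled IMP2 knockout and control islets. In the library labelled knockout, 6 of 36 members were called higher, 0 lower and 30 neither way, and 33 of 36 ratios were above 1. Of these, Hsp90b1, Edem1 and Trib3 lay below 1 under library totals. The called members were Dnajb9 at 2.28-fold, Manf at 1.85-fold, Derl3 at 1.80-fold, Edem2 at 1.61-fold, Atf3 at 1.61-fold and Ern1 at 1.52-fold. Ratios are of counts scaled by TMM, the trimmed mean of log ratios, and the 95% interval covers counting error only. A call needs a mean of at least 1 CPM, an interval that excludes 1 and a ratio of at least 1.5-fold. Of 15735 genes tested, 6.13% were called higher and 15.3% lower, and the members' shares were 16.7% and 0%. The median log2 ratio was 0.29 over the members and 0.00 over all genes tested. With a variation of 0.2 per library assumed, the calls of Dnajb9, Manf and Derl3 held and those of Edem2, Atf3 and Ern1 did not. There are no replicates in this series, so no p-value is given, and each difference is between 2 libraries.

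The chaperone arm had 2 of 16 members called higher in the library labelled knockout (12.5%, against 6.13% of all genes). Its median log2 ratio was 0.28. Dnajb9 encodes ERdj4, a J-domain co-chaperone of BiP (ENSMUSG00000014905, mm10 chr12:44205559-44210326, minus strand). It stood at 106.4 CPM in the RIP, 12.1 in the IgG library, 119.3 in the labelled knockout and 54.2 in control islets. The labelled knockout was above control islets by 2.28-fold (2.14 to 2.43), from 2896 and 1427 counts. Relative to Hspa5 within each library, which needs no scaling, there were 14.2 Dnajb9 counts per 100 Hspa5 counts in the labelled knockout and 7.54 in control islets.

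Manf encodes a secreted factor that resides in the ER and binds BiP (ENSMUSG00000032575, chr9:106838312-106891979, minus strand). Its level was 234.8 CPM in the RIP, 33.4 in the IgG library, 287.6 in the labelled knockout and 160.7 in control islets, a ratio of labelled knockout over control of 1.85 (1.78 to 1.93). Genes that overlap it on the opposite strand cover 8.9% of its exons, and the counting is not stated to use strand. Hspa5 had a ratio of 1.21 (1.19 to 1.24), at 840.2 CPM in the labelled knockout and 718.6 CPM in control islets, under the 1.5-fold limit.

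The other chaperones were not called, with ratios between 0.972 and 1.39. Creld2, an ER-resident factor of the disulfide isomerase network, stood at 88.3 CPM in the labelled knockout and 66.0 CPM in control islets, a ratio of 1.39 (1.30 to 1.48). Hyou1, a nucleotide exchange factor of BiP, had a ratio of 1.38, Dnajb11, the co-chaperone ERdj3, 1.37, and Ero1b, the disulfide oxidase abundant in pancreas, 1.31. The isomerase genes Pdia3, Pdia4 and Pdia6 had ratios of 1.10, 1.15 and 1.25. Dnajc3, an inhibitor of PERK, and Sdf2l1, a partner of ERdj3, had ratios of 1.21 and 1.20, and Calr 1.13. Dnajc10, the reductase ERdj5, had 1.12, at 86.2 CPM in the labelled knockout and 79.5 CPM in control islets. Hsp90b1, which encodes GRP94, had a ratio of 1.02 and Canx, which encodes calnexin, 0.972, both with intervals that include 1.

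The degradation arm had 2 of 8 members called higher, against 6.13% of all genes, and a median of 0.33. With only 8 genes the share rests on few calls, and that of Edem2 did not hold with the assumed variation of 0.2. All 8 ratios were above 1, except that of Edem1 under library totals. Derl3 belongs to the derlins, membrane proteins of the channel that takes misfolded protein out of the ER (ENSMUSG00000009092, chr10:75893413-75895941, plus strand). It stood at 16.4 CPM in the RIP, 1.36 in the IgG library, 39.8 in the labelled knockout and 23.0 in control islets. Over control islets the labelled knockout had a ratio of 1.80 (1.62 to 1.99), from 966 and 605 counts. Edem2 is a mannose-trimming factor that marks glycoproteins for disposal (ENSMUSG00000038312, chr2:155701677-155729475, minus strand), and it stood at 179.6, 16.6, 219.4 and 141.1 CPM in the same order of libraries. Its ratio was 1.61 (1.54 to 1.68). Both genes were highest in the labelled knockout.

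The other 6 degradation genes were not called. Derl2 stood at 88.3 CPM in the labelled knockout and 67.1 CPM in control islets, a ratio of 1.36 (1.28 to 1.45). Derl1 stood at 123.0 and 104.0 CPM, a ratio of 1.23 (1.16 to 1.29), and Edem1 at 120.3 and 120.6 CPM, a ratio of 1.03 (0.982 to 1.09). Sel1l and Syvn1, the adaptor and ubiquitin ligase of the SEL1L-HRD1 complex, had ratios of 1.27 and 1.22, and Herpud1, which helps assemble that complex, 1.24.

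Of the 4 genes for the sensors and Xbp1, 1 was called higher in this comparison, against 6.13% of all genes. This was Ern1, whose call did not hold with the assumed variation of 0.2. It encodes IRE1 alpha (ENSMUSG00000020715, chr11:106394650-106487852, minus strand) and stood at 27.6 CPM in the RIP, 0 in the IgG library, 98.6 in the labelled knockout and 66.9 in control islets. The ratio was 1.52 (1.43 to 1.62), just past the limit. It was not called at 1.47 under library totals or 1.499 under DESeq2 size factors. Xbp1, whose mRNA IRE1 splices, stood at 191.2, 93.3, 322.0 and 234.9 CPM in the same order, a ratio of 1.42 (1.37 to 1.47). Atf6 stood at 57.9, 10.5, 83.2 and 66.8 CPM, a ratio of 1.29 (1.21 to 1.38). Eif2ak3, which encodes PERK, stood at 51.3, 0.152, 41.5 and 38.8 CPM, a ratio of 1.11 (1.02 to 1.21). The ratios of Ern1 and Xbp1 were above that of Eif2ak3, and their counting intervals do not overlap its interval. These intervals leave out variation between samples, so a difference between the IRE1 and PERK branches was not tested.

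The integrated stress arm had the lowest median of the 4 arms, 0.19, with 1 of 8 called higher (12.5%, against 6.13% of all genes). Atf3 (ENSMUSG00000026628, chr1:191170296-191218039, minus strand) stood at 6.64 CPM in the RIP, 0 in the IgG library, 14.6 in the labelled knockout and 9.41 in control islets. That is 355 counts in the labelled knockout and 248 in control islets, a ratio of 1.61 (1.36 to 1.90). Atf4, the transcription factor of this arm, stood at 163.3, 167.5, 241.0 and 224.6 CPM in the same order, a ratio of 1.11 (1.07 to 1.15). Ddit3, which encodes the pro-apoptotic factor CHOP, stood at 66.9, 38.3, 46.8 and 37.7 CPM, a ratio of 1.29 (1.18 to 1.40). Sesn2, a stress-induced inhibitor of mTORC1, had 1.21 and Asns, asparagine synthetase, 1.17. Trib3 and Chac1, a glutathione-degrading enzyme, had ratios of 1.03 and 0.967 with intervals that include 1. Ppp1r15a encodes GADD34, which helps remove phosphate from eIF2 alpha, and had the lowest ratio of the 36, 0.908 (0.840 to 0.982).

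**Figure D3:**
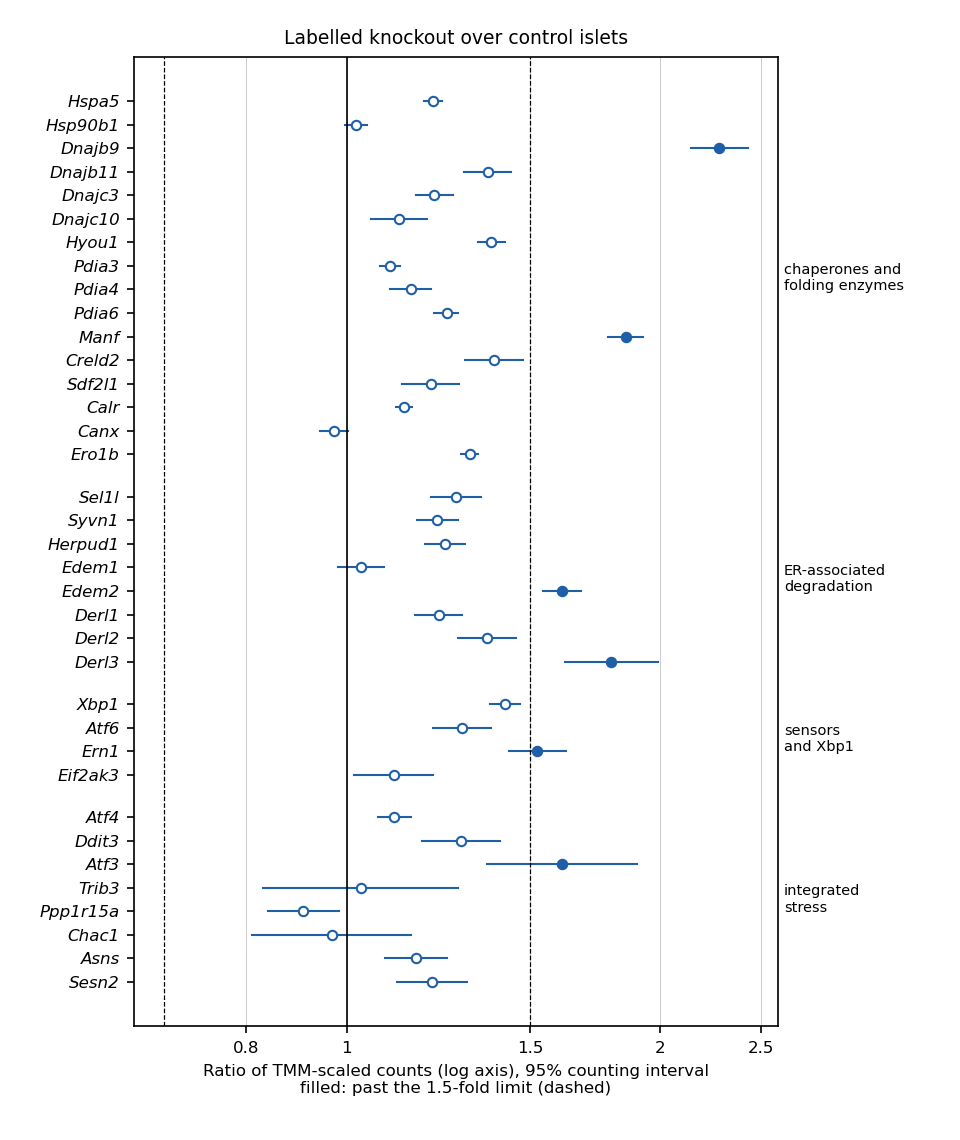
Ratio of TMM-scaled counts, library labelled knockout over control islets, for the 36 members on a log axis. Bars are 95% intervals for counting error, filled points passed the 1.5-fold limit (dashed). Dnajb9 at 2.28 stands farthest right and Ppp1r15a at 0.908 farthest left.

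The 12 members with ERSE or ERSE-II in the window had 1 called higher, Derl3, and a median log2 ratio of 0.30. The 20 members with a window but neither element had 4 called higher and a median of 0.24. Those 4 were Dnajb9, Edem2, Ern1 and Atf3, and only Dnajb9 held with the assumed variation of 0.2. Of all genes, 6.13% were called higher. Ratios of the 2 groups overlapped, from -0.04 to 0.84 with an element and from -0.14 to 1.19 without.

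Genes further along the secretory pathway were set beside the members, from 6 lists of 192 genes. Their calls are given under TMM only. Library totals lower every ratio here by 0.05 (log2). This takes Alg2, Lman1, Golgb1, Tmed9, Kdelr2 and Aldh1l2, all named below, under the 1.5-fold limit. Member calls at 1.61-fold and below did not hold with the assumed variation of 0.2, so calls near the limit are uncertain. Of 35 measured genes of translocation and N-glycosylation, 6 were called higher in the library labelled knockout and 0 lower (17.1% and 0%), with a median log2 ratio of 0.38. They were Srprb, a subunit of the signal recognition particle receptor, at 1.95-fold, the translocon genes Sec61g at 1.72-fold, Sec61a1 at 1.64-fold and Sec62 at 1.56-fold, Ostc of the oligosaccharyltransferase at 1.68-fold, and the mannosyltransferase gene Alg2 at 1.502-fold. Sec61a1 stood at 506.9 CPM in the labelled knockout and 321.0 CPM in control islets. Stt3b, a catalytic subunit of the oligosaccharyltransferase, had the lowest ratio of this list, 0.811.

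Of 33 genes of ER-Golgi transport, 7 were called higher and 0 lower (21.2% and 0%), with a median of 0.33. They included Arfgap3 at 1.80-fold, Preb, the exchange factor that starts COPII coats, at 1.78-fold, and Mcfd2 and Lman1, the paired cargo receptor, at 1.76-fold and 1.55-fold. Golgb1 at 1.54-fold, Tmed9 at 1.53-fold and Kdelr2, a receptor that returns chaperones to the ER, at 1.53-fold were the others. Copb1, a coat subunit of the retrograde route, had the lowest ratio, 0.892.

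Other ER folding factors had 2 of 30 called higher (6.67%) and 0 lower with a median of 0.24. These were Fkbp14, a prolyl isomerase, at 1.97-fold and the Hsp70 family gene Hspa13 at 1.91-fold, and the lowest ratios were 0.843 for Tmx3 and 0.888 for Ppib. Other degradation genes had 1 of 26 called higher (3.85%), Selenos at 1.57-fold, with a median of 0.08. Hm13, signal peptide peptidase, followed at 1.48, and the lowest ratios were 0.892 for Rnf139 and 0.901 for Bcap31. Other sensors and regulators had 2 of 26 called higher and 1 lower with a median of -0.03. Their shares were 7.69% and 3.85%, against 6.13% and 15.3% of all genes. Wfs1, the gene of Wolfram syndrome, was 1.64-fold and Creb3l1 1.62-fold higher, and Crebrf was 1.57-fold lower, followed by Nfya, a subunit of NF-Y, at a ratio of 0.679.

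Of other ATF4 targets, 1 of 39 was called higher, 8 lower and 30 neither way (2.56% higher and 20.5% lower, against 6.13% and 15.3% of all genes). Their median was -0.06, close to the 0.00 of all genes. The 8 were the cystine transporter gene Slc7a11 (3.39-fold lower), the serine synthesis genes Psat1 (2.59-fold) and Phgdh (1.75-fold), Stc2 (2.49-fold), Ddit4, an mTORC1 inhibitor (2.28-fold), the death receptor gene Tnfrsf10b (1.93-fold), Bcl2l11 (1.71-fold) and Shmt2 (1.51-fold). Slc7a11 and Stc2 rest on few counts. Slc7a11 had 21 counts in the labelled knockout and 80 in control islets, a ratio of 0.295 (0.173 to 0.482). Stc2 had 29 and 81 counts, a ratio of 0.402 (0.254 to 0.622). Psat1 stood at 9.02 CPM in the labelled knockout and 24.2 CPM in control islets. Aldh1l2, a mitochondrial folate enzyme, was the gene called higher, at 1.52-fold.

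**Figure D4:**
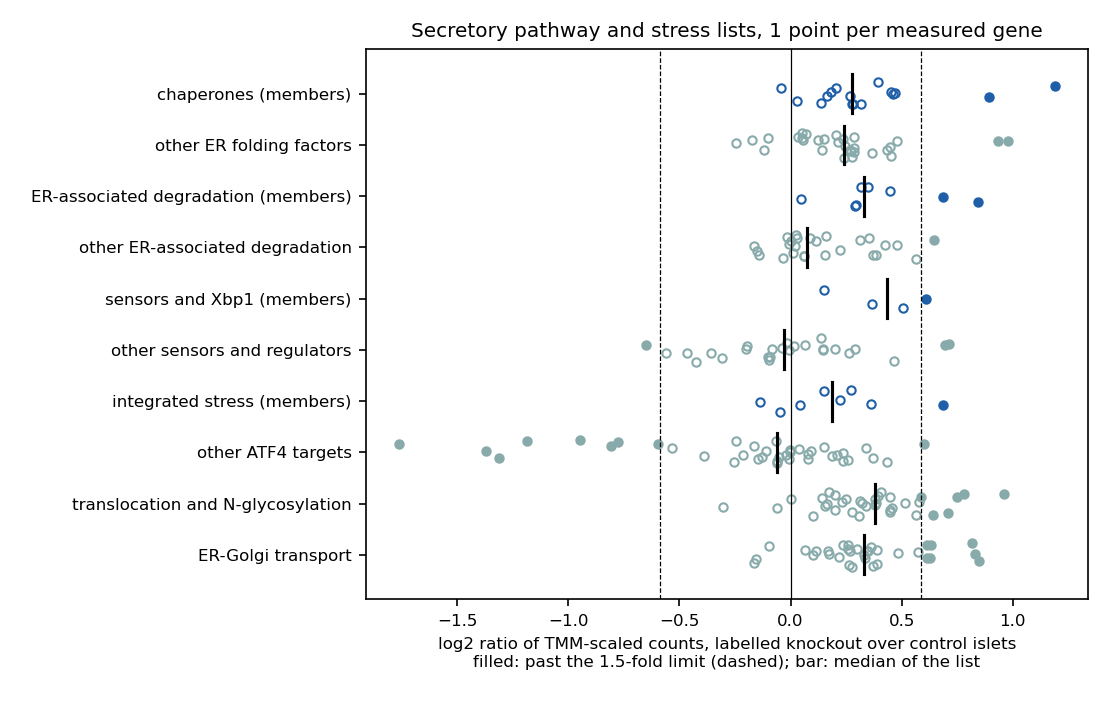
log2 ratio of labelled knockout over control islets for every measured gene of the 4 arms (blue) and of 6 further lists (grey). Filled points passed the 1.5-fold limit (dashed), and black bars are list medians. Medians run from 0.44 for the sensors and Xbp1 to -0.06 for other ATF4 targets.

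Markers of other cell types differed between the same 2 libraries, and in bulk RNA fewer cells of a type and less RNA per cell cannot be told apart. Plasma cell genes, of a cell type rich in ER chaperones, had 6 of 7 measured members called lower and 0 higher, and summed to 783.3 CPM in the labelled knockout and 2813 CPM in control islets, with none at 0. B cell genes had 5 of 5 lower (159.0 and 785.3 CPM), T cell genes 6 of 6 lower (21.2 and 168.2 CPM) and genes of dividing cells 6 of 6 lower (94.5 and 297.3 CPM), with no gene at 0 in either library. Alpha cell genes had 4 of 6 higher (26130 and 15260 CPM) and beta cell genes 1 of 9 higher (334500 and 309200 CPM). Acinar genes, also of a professional secretory cell, had 3 of 12 measured members higher and 0 lower and summed to 461.2 CPM in the labelled knockout and 395.3 CPM in control islets, with Ptf1a at 0 in the labelled knockout. Bhlha15, a transcription factor of secretory cells, was the highest of these at 2.35-fold. The median log2 ratio was 0.71 over alpha, 0.35 over beta and 0.32 over acinar genes, against 0.29 over the 36 UPR members. Ratios were above 1 for 6 of 6 alpha and 9 of 9 beta cell genes, and below 1 for 3 acinar genes. Delta and pancreatic polypeptide cell genes went the other way, with 3 of 4 ratios below 1 and a median of -0.33. The part of these shifts in the UPR ratios was not tested.

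The second comparison asks which members' RNA was recovered with IMP2 beyond the IgG library. Most chaperone and sensor genes were higher in the RIP and 2 derlin genes were lower. Calls here need a 2-fold ratio: 21 of 36 members were called higher and 2 lower. Of 14822 genes tested, 43.2% were called higher and 30.5% lower, and the members' shares were 58.3% and 5.56%. The median log2 ratio was 1.52 over the members and 0.44 over all genes tested, a difference of 1.08. Scaling moved all ratios together, by 0.69 (log2) under library totals and by 1.46 under totals that leave out hormone, acinar and Gm42418 counts, called reduced totals below. Gm42418 is a gene model that overlaps ribosomal RNA. Over all genes TMM gave 6402 higher and 4518 lower calls, against 7670 and 3387 under library totals, and 9216 and 2386 under the reduced totals. Adipocyte markers had 7 of 7 lower (2396 CPM in the RIP and 40170 CPM in the IgG library) and beta cell markers 9 of 9 higher (235700 and 967.1 CPM), with no gene of either list at 0. The tissue content of the 2 libraries and recovery with IMP2 cannot be told apart in this ratio.

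The sensors had the highest median of the 4 arms, 4.01 with Ern1 set against 3 IgG counts. Of these genes 3 of 4 were called higher (75.0%, against 43.2% of all genes). Eif2ak3 had 309 RIP counts and 2 IgG counts, a ratio of 209.8 (57.6 to 1740). Ern1 had 166 RIP counts and 0 IgG counts, a ratio of 75.2 when 3 counts are allowed in the IgG library and a lower counting limit of 60.4. Atf6 had 349 and 138 counts, a ratio of 3.44 (2.81 to 4.21). Xbp1 was not called, with 1152 and 1231 counts and a ratio of 1.27 (1.17 to 1.38). Where reads are copies of 1 molecule these intervals are too narrow, and the estimated reads per molecule were 18 (RIP) and 21 (IgG). On estimated molecules the lower limits were 4.60 for Eif2ak3, 2.37 for Ern1 and 1.36 for Atf6.

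Of the chaperones, 11 of 16 were called higher in the RIP (68.8%, against 43.2% of all genes) and 0 lower, with a median of 1.60. Sdf2l1 had 296 RIP counts and 3 IgG counts, at 49.1 and 0.227 CPM, a ratio of 134.0 (45.4 to 653.5), with a lower limit of 4.27 on estimated molecules. Its level was 83.6 CPM in the labelled knockout and 71.9 CPM in control islets, so the IgG library stood far below the other 3. Ero1b followed at 22.7-fold (20.0 to 25.9), with 696.5 RIP CPM and 19.0 IgG CPM. Hyou1 was 11.4-fold, Creld2 7.73-fold, Pdia4 6.47-fold, Dnajb9 5.48-fold and Manf 4.36-fold higher. Pdia3 at 3.13-fold, Hsp90b1 at 2.93-fold, Hspa5 at 2.70-fold and Dnajb11 at 2.60-fold were the other calls. Pdia6, Dnajc3, Dnajc10 and Calr lay between 1.25 and 1.91, and Canx at 0.564, which was above 1 under the reduced totals.

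The degradation genes had 4 of 8 called higher, 2 lower and a median of 1.12. Of all genes, 43.2% were called higher and 30.5% lower, with a median of 0.44. The counts of this arm lie near those shares, so calls in both directions are not particular to it. Syvn1 was 12.6-fold (9.42 to 17.3), Derl3 7.47-fold, Edem2 6.71-fold and Sel1l 2.81-fold higher in the RIP. Derl1 was 4.72-fold lower, at 58.6 CPM in the RIP and 171.4 CPM in the IgG library, with 123.0 CPM in the labelled knockout and 104.0 CPM in control islets. Derl2 was 3.54-fold lower, at 47.8 and 105.0 CPM, with 88.3 and 67.1 CPM in the labelled knockout and control islets. Derl1 and Derl2 were thus highest in the IgG library, while their paralog Derl3 was lowest there. Within a library, there were 8.76 Derl1 counts per 100 Hspa5 counts in the RIP, 111.4 in the IgG library, 14.6 in the labelled knockout and 14.5 in control islets. Neither Derl1 nor Derl2 was called lower under the reduced totals, with ratios of 0.581 and 0.774. Herpud1 had a ratio of 0.520, which was above 1 under the reduced totals, and Edem1 1.69.

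The stress arm stood closest to a ratio of 1, with 3 of 8 called higher (37.5%), 0 lower and a median of 0.16. Its share called higher and its median lay below the 43.2% and 0.44 of all genes, of which 30.5% were called lower. Sesn2 was 5.17-fold (3.72 to 7.32) and Ppp1r15a 4.01-fold (3.11 to 5.21) higher in the RIP. Atf3 had 40 RIP counts and 0 IgG counts, a ratio of 18.1 against 3 counts and a lower counting limit of 14.1. On estimated molecules the lower limits of Atf3 and Derl3 were 0.273 and 0.791, so neither call held. Ddit3 and Asns had ratios of 1.08 and 1.16. Atf4 (0.605), Trib3 (0.679) and Chac1 (0.517, at 5.31 and 6.37 CPM) lay below 1 under TMM and above 1 under the reduced totals.

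The third comparison sets the RIP against control islets, which asks how far the recovered RNA departs from the RNA of the islets. Few members were past the limit between the RIP and control islets: 3 of 36 were called higher and 1 lower at the 2-fold limit, with a median log2 ratio of 0.06, against -0.12 over all genes. Of 15968 genes tested, 16.8% were called higher and 24.3% lower, and the members' shares were 8.33% and 2.78%. Library totals lower every ratio here by 0.28 (log2), which leaves 0 members called higher. The same control library enters this ratio and that of the labelled knockout, so the 2 sets of values are not independent.

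Dnajb9 was 2.38-fold higher in the RIP than in control islets (2.17 to 2.62), at 106.4 and 54.2 CPM. Ddit3 was 2.15-fold higher (1.91 to 2.42), at 66.9 and 37.7 CPM, and Creld2 2.07-fold higher (1.89 to 2.26), at 112.4 and 66.0 CPM, though Creld2 was under the limit at 1.96 with reduced totals. Manf had a ratio of 1.77, Trib3 1.85, Sel1l 1.72, Eif2ak3 1.61 and Edem2 1.54, all under the limit. Trib3 rests on 63 counts in the RIP, and its limits on estimated molecules were 0.442 and 5.11. For Dnajb9, Creld2 and Ddit3 the lower limits on estimated molecules were 1.66, 1.46 and 1.35.

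Ern1 was the member called lower, 2.002-fold (ratio 0.4995, 0.423 to 0.586), at 27.6 CPM in the RIP and 66.9 CPM in control islets. Under DESeq2 size factors its ratio was 0.507, inside the limit. Chac1 at 0.609 (0.409 to 0.880, from 32 and 279 counts) and Dnajc10 at 0.615 (0.537 to 0.703, 40.3 and 79.5 CPM) were next. Syvn1 at 0.666 and Derl1 at 0.684 also lay below 1. Hspa5, Pdia3, Pdia4, Ero1b, Herpud1, Xbp1 and Atf6 lay between 0.988 and 1.13, and the other 16 members between 0.744 and 1.34. Of the genes above 1 here, 11 lay below 1 under library totals, Hspa5 and Pdia3 among them. The 2 RIP ratios of Ern1 thus ran opposite ways, far above the IgG library and below control islets. This was not particular to Ern1. Among others, Sdf2l1 (134.0 over IgG and 0.829 over control islets) and Syvn1 (12.6 and 0.666) ran the same ways, without a call against control islets. Adipocyte markers were higher in the RIP than in control islets for 7 of 7 genes (2396 and 272.1 CPM), which is the direction of the IgG library, and the part of that RNA in these ratios was not tested.

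**Figure D5:**
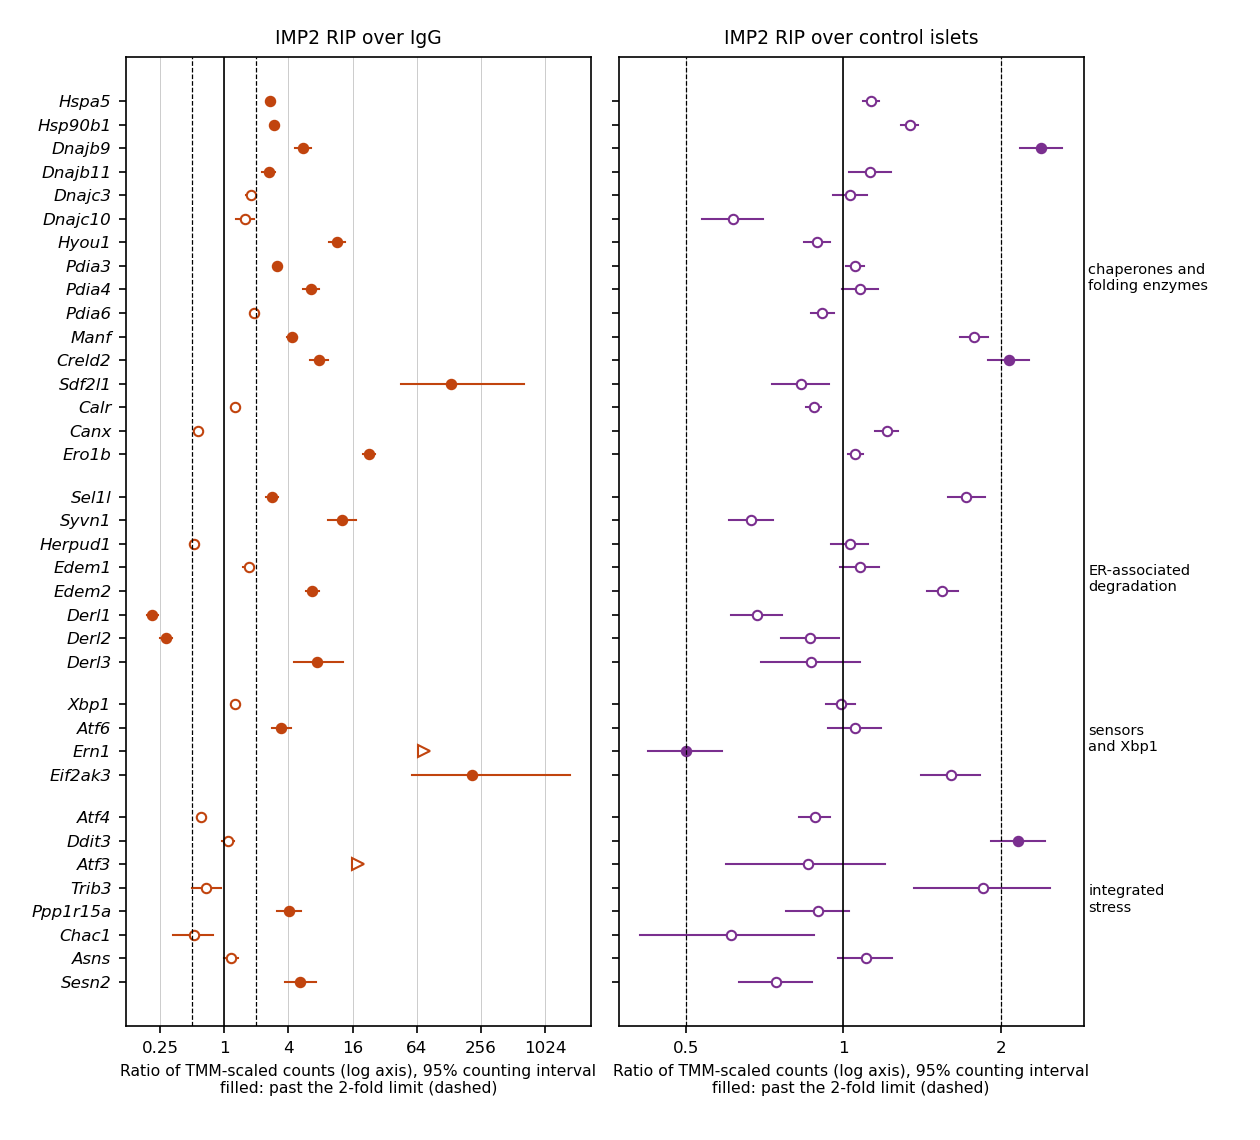
Ratios of TMM-scaled counts for the 36 members, RIP over IgG (left) and RIP over control islets (right), on log axes of different range. Bars are 95% counting intervals, filled points passed the 2-fold limit (dashed), and open triangles are ratios against 3 IgG counts for Ern1 (75.2) and Atf3 (18.1), which had 0 there. Ratios over IgG spread from 0.212 to 209.8 and ratios over control islets from 0.4995 to 2.38.

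In the wider lists, shares called between the RIP and control islets lay below those of all genes, 16.8% higher and 24.3% lower. Translocation and N-glycosylation genes had 4 of 35 called higher (11.4%) and 0 lower with a median of 0.31, namely Sec61g at 3.79-fold, Sec62 at 3.61-fold, Magt1 at 2.83-fold and Srprb at 2.55-fold. Their lowest ratio was 0.524, of Stt3b. Other ATF4 targets had 5 of 38 called higher (13.2%) and 9 lower (23.7%). Their highest ratio was 7.11, of Cebpb, and their lowest 0.00833 (0.000211 to 0.0466), of Psat1, with 1 count in the RIP and 637 in control islets. Cth had 0 counts in the RIP and 59 in control islets, which leaves its ratio anywhere below 0.343. Other folding factors had 1 of 29 higher, Dnajc1 at 2.28-fold, and 2 lower, ER-Golgi transport 0 of 33 higher and 1 lower, other degradation genes 0 of 26 either way, and other regulators 0 of 25 higher and 4 lower. Against the IgG library, the counts called higher and lower were 16 and 3 of 35 for translocation and 17 and 2 of 33 for transport. They were 11 and 5 of 30 for folding and 5 and 10 of 26 for degradation. Regulators had 8 and 7 of 26 and ATF4 targets 12 and 9 of 36. Of all genes, 43.2% were called higher and 30.5% lower in that comparison. Shares called higher lay above this for translocation (45.7%) and transport (51.5%) and below it for the other lists. Shares called lower lay below that of all genes except for degradation (38.5%).

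Counting limits touch a few members. Windows of 50 bases shared with transcripts of other genes made up 9.8% of Hsp90b1, 9.4% of Ero1b, 6.2% of Manf, 5.7% of Eif2ak3, 5.6% of Derl1, 5.5% of Dnajb9 and 4.4% of Ddit3, and no more than 2.3% of any other member. Exons of other genes overlapped 15.7% of the exons of Hsp90b1, 10.9% of Ddit3, 9.3% of Manf and 8.0% of Eif2ak3. They overlapped no more than 2.9% of any other member. Reads from such stretches may be lost or split.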

How the data were processed

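RNA-seq gene counts were analysed for 4 libraries, 1 per group, grouped by genotype or title. The values are the deposited whole-number read counts per Ensembl gene. The tools were STAR and HTSeq on mm10, per the submitters' processing notes. Their versions, strand option and annotation release are not given in the sources used here. In each file 5 closing entries named no gene, held 72.4% (RIP), 70.5% (IgG), 50.3% (labelled knockout) and 50.8% (control) of all counts and were left out. GENCODE M21 (GRCm38, the assembly of mm10) named 42548 of 43629 genes and gave coordinates and merged exon lengths. The RefSeq promoter windows are on GRCm38.p6.

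Each pair of libraries was scaled by TMM (edgeR 4.0.16, R 4.3.3). A gene was tested at a mean of at least 1 CPM. Ratios have exact 95% Clopper-Pearson intervals for counting error only, since each group has 1 library. Reads that carry no molecular identifier may be copies of 1 molecule, and the intervals are then too narrow. Calls needed an interval excluding 1 and a ratio of 1.5-fold (labelled knockout) or 2-fold (RIP). Medians of log2 ratios used 0.5 added counts. Against 0 counts the ratio used 3 counts in that library. Reads per molecule were estimated for the RIP and IgG libraries from genes at 0 in both islet libraries, as the median of their counts above 5. The interval was tested on simulated data. Alternatives were library totals, DESeq2 1.42.0 size factors, totals without hormone, acinar and Gm42418 counts, other filters and limits, an assumed variation of 0.2 per library, estimated molecules and 5 added counts. Tables and figures were made in Python 3.11.15 with pandas 2.3.3, SciPy 1.17.1, Matplotlib 3.10.9 and NumPy 2.4.6.

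The members and lists were chosen with earlier results of these data known. Values in all libraries were given for members called between labelled knockout and control, sensors and transcription factors, the 3 highest per kb and the 3 extremes of each RIP ratio, and from the wider lists for called genes and extreme ratios.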

Additional observations from a re-analysis of the deposited data

How the results depend on the processing

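No paired analysis was possible because each group has 1 library. For the same reason no library could be left out, and the intervals cover counting error only. For the labelled knockout over control islets, the 6 members called higher became 5 under library totals and under DESeq2 size factors (without Ern1), 1 at a 2-fold limit (Dnajb9) and 3 with an assumed variation of 0.2 per library (Dnajb9, Manf and Derl3), and 0 were called lower under every alternative. All genes called higher and lower numbered 497 and 1582 at a mean of at least 5 CPM, 198 and 1375 at the 2-fold limit, and 272 and 1586 with the assumed variation. For the RIP over IgG, the 21 members called higher ranged from 15 at a 4-fold limit to 29 under totals without hormone, acinar and Gm42418 counts. The 2 called lower became 0 under those totals and 1 at the 4-fold limit. All genes called lower were 2386 under those totals and 2975 at the 4-fold limit, and those called higher were 3945 at 5 CPM. On estimated molecules 2309 were called higher and 2829 lower. For the RIP over control islets, the 3 members called higher became 0 under library totals and at the 4-fold limit, and the member called lower became 0 under DESeq2 size factors and at the 4-fold limit. All genes called higher and lower were 1302 and 2220 at 5 CPM, 1437 and 2278 at the 4-fold limit, and 1373 and 1004 on estimated molecules. The stricter limits and filters test fewer genes or ask for more by construction, and the other causes were not tested.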
